A study of Homo sapiens with 6 samples.

Results

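The nuclear-encoded genes of the mitochondrial respiratory chain were followed in RNA that had been immunoprecipitated through its 5′ cap. Members were taken by name: every gene on the array whose name starts with NDUF, UQCR or ATP5, or with COX4 to COX8 followed by a letter, together with SDHA, SDHB, SDHC, SDHD and CYC1. The rule used no measured signal, apart from letting the brightest probe stand for a gene with several. It gave 93 of the 36328 gene names on the array: 43 under complex I, 4 under complex II, 10 under complex III, 17 under complex IV and 18 under complex V. The remaining name, COX4NB, is an older symbol of EMC8, a membrane protein insertion factor of the endoplasmic reticulum, and is kept apart.

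The arrays came from MOLT-4, an established line of an immature T-cell leukaemia. Cells had been transfected with an empty vector (mock, 3 arrays) or with a NUDT16 vector (NUDT16, 3 arrays; the gene's product removes caps from RNA), and 20 μg of total RNA went into each precipitation of m3G- and m7G-capped RNA. The labels do not say whether replicates were separate cultures or transfections, nor name the promoter or clone behind the NUDT16 cells, so p-values measure only the spread between these arrays. RNA from before the precipitation was not analysed here, and a difference in capping cannot be told apart from a difference in RNA abundance.

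The respiratory chain moves electrons from NADH and succinate to oxygen and uses the released energy to make ATP. Complex I (NADH dehydrogenase) and complex II (succinate dehydrogenase) feed electrons to ubiquinone, complex III (cytochrome bc1) passes them to cytochrome c, complex IV (cytochrome c oxidase) reduces oxygen, and complex V (ATP synthase) makes ATP from the proton gradient. Most subunits are made from capped, polyadenylated nuclear transcripts and imported into mitochondria, and several subunits of complex IV exist as a common and a tissue-restricted isoform. The nuclear factors NRF1, GABP (an ETS-family factor) and YY1 are known regulators of these genes.

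Sequences just upstream of the transcription start are shown for members that illustrate the common and the restricted isoforms and the repeated NRF1 letters, because the restricted isoforms separate from the others in the detection results. Each is the 100 bases before the start, 5′ to 3′ on the gene's strand, from RefSeq (GRCh38.p14), with any complete match to NRF1 (GCGC, any base, TGCGC), ETS (CCGGAAG) or YY1 (AAGATGGCG) letters on either strand in capitals. Not every common form had a match there. The common isoform COX4I1 and the complex I gene NDUFB11, not shown, had none in these 100 bases. The ETS letters of COX4I1 lay after the start. COX6A1 lies at chr12:120438013-120438112 on the plus strand, COX6A2 at chr16:31428361-31428460 on the minus strand, COX8A at chr11:63974520-63974619 on the plus strand and COX8C at chr14:93347082-93347181 on the plus strand. UQCR11 lies at chr19:1605463-1605562 on the minus strand and SDHA at chr5:218220-218319 on the plus strand.
COX6A1: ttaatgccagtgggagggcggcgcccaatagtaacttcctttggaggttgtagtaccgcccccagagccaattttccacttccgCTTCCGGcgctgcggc
COX6A2: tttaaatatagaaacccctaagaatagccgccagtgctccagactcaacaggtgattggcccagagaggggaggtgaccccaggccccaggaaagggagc
COX8A: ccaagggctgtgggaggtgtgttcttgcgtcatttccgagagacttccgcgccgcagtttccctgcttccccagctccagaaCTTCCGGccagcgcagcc
COX8C: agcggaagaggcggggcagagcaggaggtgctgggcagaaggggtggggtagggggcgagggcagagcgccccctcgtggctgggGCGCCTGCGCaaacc
UQCR11: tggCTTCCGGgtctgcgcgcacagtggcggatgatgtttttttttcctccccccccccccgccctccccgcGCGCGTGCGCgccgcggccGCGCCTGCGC
SDHA: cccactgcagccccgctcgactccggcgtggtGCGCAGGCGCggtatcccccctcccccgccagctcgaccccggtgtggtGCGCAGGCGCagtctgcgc

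Over windows from 250 bases before to 50 bases after the start, available for 75 of the 93 members, at least one of the 3 motifs was found in 38 members (50.7%), against 17.0% of 27305 promoters in the table. NRF1 letters were in 21.3% of the members' windows and 6.28% of all windows, ETS letters in 28.0% and 10.7%, and YY1 letters in 10.7% and 1.85%. At least one motif was in 16 of 38 windows of complex I, 3 of 3 of complex II and 6 of 7 of complex III. For complex IV it was 6 of 14 and for complex V 6 of 12. The restricted isoforms had one in 1 of 5 windows (20.0%), the NRF1 match of COX8C. A match is a description of letters, not of binding.

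Arrays differed widely in signal. Between 14.6% (NUDT16 replicate 2) and 52.0% (NUDT16 replicate 3) of 58717 spots for cell RNA were well above background, and the other 4 arrays lay between 39.3% and 51.1%. No spot was saturated. The mock and NUDT16 arrays of one replicate number shared a slide and a scan. Below, a signal is a log2 intensity minus the 75th percentile that the array had over the probes detected on every one of the 6 arrays, a difference is NUDT16 minus mock on that scale, and a pair is the mock and the NUDT16 array of one number. NUDT16 itself was detected on 0 of 6 arrays and so did not check the labels, while its pseudogene NUDT16P1 was detected on 3 of 3 NUDT16 and 0 of 3 mock arrays. Of 10 markers of MOLT-4, CD4, CD5, CD6, DNTT and LCK were detected on all 6 arrays and LMO1 on none; of 11 markers of other cells, 7 were on none, and the B-cell gene CD79A was detected on all 6. The part of other cells in the results was not tested.

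Respiratory chain transcripts were among the readily detected RNAs of the cap eluate. Of the 93 members, 85 (91.4%) were well above background on all 6 arrays, against 15.6% of all gene names (5654 of 36328). The gene names also hold probes listed only by a probe name, and 42% of the names were detected on no array. The shares are therefore over unlike sets, and whether such detection is particular to the respiratory chain was not tested. These 85 held 41 of 43 complex I genes, 4 of 4 of complex II, 10 of 10 of complex III, 12 of 17 of complex IV, 17 of 18 of complex V, and COX4NB. Of the others, NDUFA9, an accessory subunit of complex I, and ATP5S, a factor related to complex V, fell below detection only on NUDT16 replicate 2. COX4I2 and COX6A2 were detected on 3 arrays and COX7B2 on 1. NDUFA4L2, COX7A1 and COX8C were detected on none.

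The members not detected throughout were mostly the tissue-restricted isoforms. Detection on all 6 arrays was found for 1 of 7 restricted isoforms (COX6B2) and for all 38 members classed simply as subunits of complexes II to V. COX4I1, the common form of the largest nuclear subunit of complex IV, had unscaled log2 intensities of 14.7, 13.1 and 13.5 on mock replicates 1 to 3, and 15.02, 9.84 and 14.6 on NUDT16 replicates 1 to 3. Its lung isoform COX4I2 had 5.399, 2.05 and 4.53 in mock and 4.70, 3.30 and 4.99 in NUDT16, and was well above background on mock replicates 1 and 3 and NUDT16 replicate 3.
COX6A2, the heart and muscle counterpart of COX6A1, was detected on those same 3 arrays, with unscaled log2 intensities of 5.59, 3.41 and 4.88 in mock and 5.004, 2.88 and 5.47 in NUDT16. The heart and muscle form COX7A1 and the testis form COX8C reached at most 3.07 on any array. Probes differ in brightness per molecule, so one isoform's intensity is not a fraction of the other's.

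**Figure D1:**
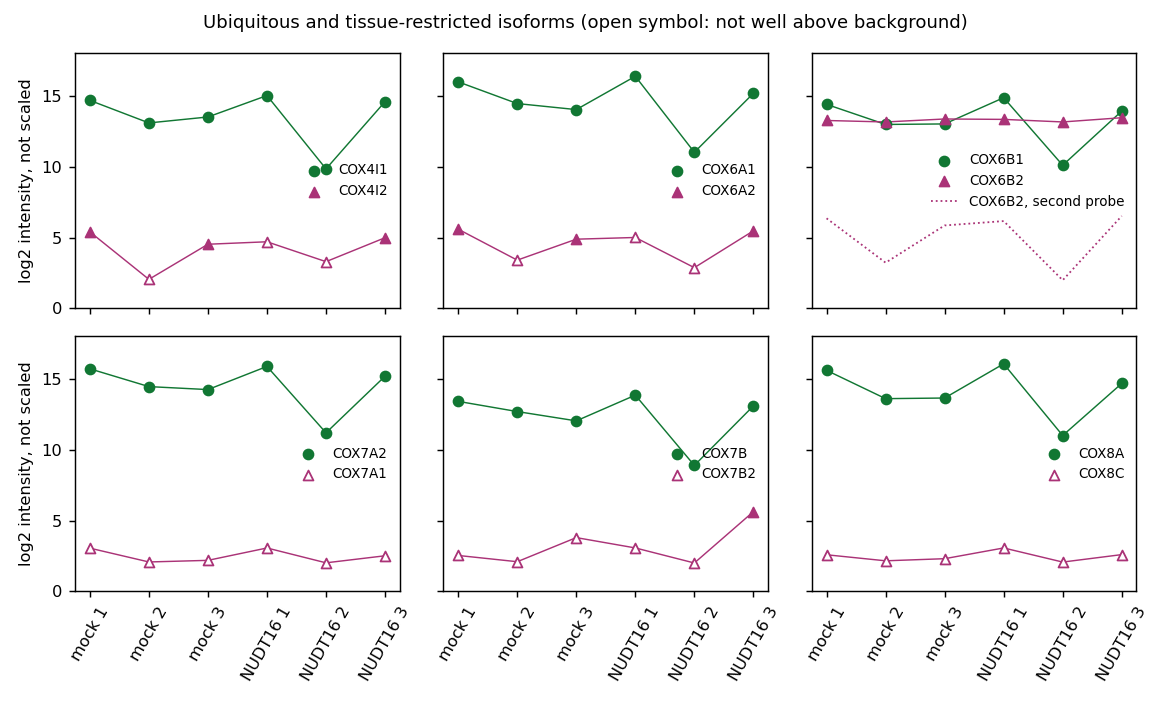
Log2 intensity before scaling for 6 pairs of complex IV isoforms on each of the 6 arrays (x axis), with open symbols where the probe was not well above background and a dotted line, drawn without detection marks, for the second COX6B2 probe. The common isoforms (green circles) are filled on all arrays and dip on NUDT16 replicate 2, the restricted ones (triangles) are mostly open, and the brighter COX6B2 probe is level across arrays, from 13.2 to 13.5. Heights of different probes cannot be compared.

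COX6B2, the testis isoform of a small subunit on the outer face of complex IV, was the exception, and its brightest probe (A_33_P3378284, chr19:55861357-55861416, hg19) did not follow the arrays. Its unscaled log2 intensities were 13.3, 13.2 and 13.4 in mock and 13.3, 13.2 and 13.5 in NUDT16. This range of 0.299 compares with ranges of at least 4.11 for each of the other 84 members detected on all 6 arrays, and only 4 of 5654 genes (0.0707%) had a range as small. A second COX6B2 probe (A_23_P78571) was detected on 4 arrays and did follow them, with 6.36, 3.23 and 5.85 in mock and 6.16, 1.99 and 6.52 in NUDT16. After scaling, the level probe turned into the largest difference of any member detected throughout, 1.05 (SE 1.09), made almost wholly by the pair of replicate 2 (3.60, against 0.030 and -0.47). Before scaling, the arrays of that pair both read 13.2.

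No respiratory chain gene passed the test for a difference between NUDT16 and mock arrays. With limma and Benjamini-Hochberg adjustment over 13696 genes, 0 of the 87 members tested were called and 0 had an unadjusted p under 0.05. Over all genes tested, 1 was called (0.0073%), NUDT16P1, and 7 (0.0511%) had an unadjusted p under 0.05. With the replicate number as a block, again 0 of 87 were called, and 1 (NDUFB11) had an unadjusted p under 0.05, against 8.53% of all genes. With the arrays of replicates 1 and 3 alone and the block, 0 of 87 members were called, against 242 of all genes (1.77%). Of the 85 members on all arrays, 84 differed by less than 1 and 69 by less than 0.5, with a median SE of 0.613 without and 0.311 with the block. For all genes detected on all 6 arrays, the 15th percentile of the differences was -0.52 and the 77th was 0.508. Their median SE was 0.65 without and 0.332 with the block.

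The members' median difference was 0.097, beside 0.177 for the 5654 genes detected on all 6 arrays and -0.064 for all genes tested. The pairs did not share one direction: the members' medians were 0.106, -0.21 and 0.261 for replicates 1, 2 and 3, beside -0.093, 0.380 and 0.051 for all genes detected on all 6 arrays. In pairs 1 and 3 both, 58.8% of the members were higher with NUDT16, against 33.6% of those genes, while in pair 2 it was 44.7% against 61.9%. In all 3 pairs, 33 of 85 members (38.8%) were higher, with 27.8% as background, and 9 (10.6%) were lower, with 18.4% as background. These shares are descriptions, since genes on the same arrays are not independent.

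**Figure D2:**
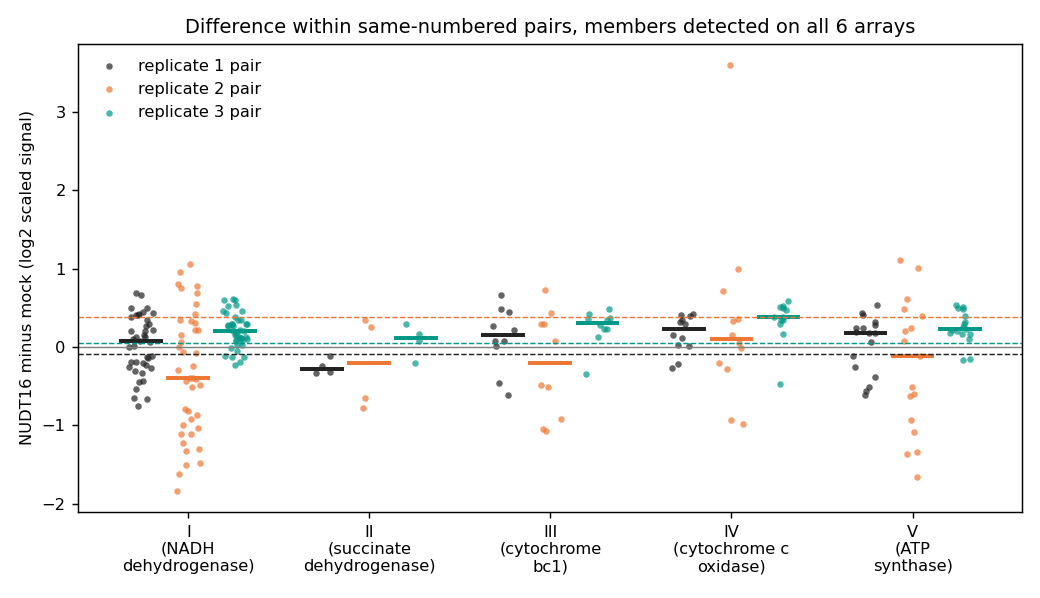
Difference between the NUDT16 and the mock array of each replicate number (y axis, log2 scaled signal) for the members detected on all 6 arrays, by complex. Points are genes, thick bars the median of a complex in a pair, and dashed lines the medians of all genes detected on all 6 arrays. The replicate 2 pair (orange) is the most spread, and in the replicate 3 pair (green) the medians of all 5 complexes lie above 0.

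**Figure D3:**
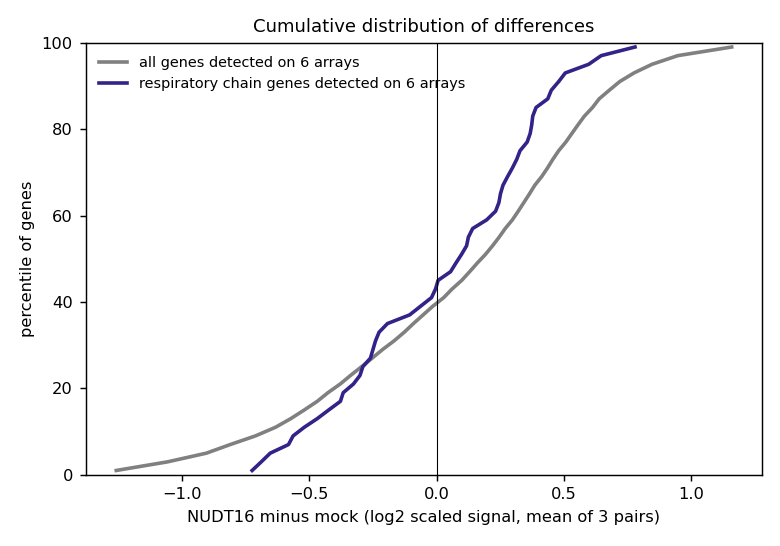
Percentile of genes (y axis) with a difference at or below the value on the x axis (mean of the 3 pairs, log2 scaled signal), for members and for all genes detected on all 6 arrays, drawn from the 1st to the 99th percentile. The members' curve is steeper at both ends. Of the members, 69 of 85 lie within 0.5 of zero. From the 15th to the 77th percentile, their differences run from -0.424 to 0.356, and those of all genes from -0.52 to 0.508.

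Spread between replicate numbers was larger than the group difference in 77 of 85 members (90.6%), as in 93.0% of all genes detected on all 6 arrays. Complex I had a median difference of -0.005, complex II of -0.13, complex III of 0.081, complex IV of 0.254 and complex V of 0.115. None of the complexes had a called gene. The counts of members higher or lower in all 3 pairs, given below by complex, stand beside background shares of 27.8% higher and 18.4% lower. These shares are over all genes detected on all 6 arrays, and whether a complex departs from them was not tested.

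In complex I, 15 of 41 genes were higher with NUDT16 in all 3 pairs and 6 were lower. NDUFB11, an accessory subunit of the membrane arm encoded on the X chromosome (probe at chrX:47002046-47002105, hg19), had signals of 1.47, 1.15 and 0.620 in mock and 2.16, 2.10 and 1.16 in NUDT16. The NUDT16 array was the higher one within each pair, by 0.689, 0.958 and 0.537, while the groups overlapped. The difference of 0.73 (SE 0.602) had an adjusted p of 0.998 in limma, and of 0.488 with the replicate block (SE 0.299). NDUFA3, another accessory subunit, was higher by 0.658, 0.802 and 0.345, and NDUFAF3, an assembly factor, by 0.431, 1.06 and 0.521.

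The conserved core of complex I, which holds the flavin, the iron-sulphur clusters and the ubiquinone site, was divided. NDUFS1, the largest of them, had signals of -1.11, -0.23 and 0.269 in mock and -1.86, -1.72 and 0.142 in NUDT16 (probe at chr2:206988874-206988933, hg19). It was lower with NUDT16 in each pair, by very different amounts (0.128 in the smallest and 1.48 in the largest). Its difference of -0.79 (SE 0.705) was the lowest of any member detected throughout. The limma adjusted p was 0.998, and 0.488 with the replicate block (SE 0.365). NDUFV1, which binds NADH and the flavin, was higher in all pairs (0.344, 0.685 and 0.096), as were NDUFS7 (0.412, 0.748 and 0.147) and NDUFS8 (0.499, 0.154 and 0.082), both of which hold clusters near the ubiquinone site.
NDUFV2, the partner of NDUFV1, had differences of -0.65, -1.62 and 0.208 by pair, and NDUFS3 of 0.124, -0.076 and 0.381. These did not share a direction across pairs. Replicate 2 had the highest pair mean in 0 of 7 core subunits and in 20 of 30 accessory subunits, beside 35.4% of all genes detected on all 6 arrays. The core subunits are few, and the difference between the classes was not tested.

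Among the other accessory subunits, NDUFS4, which stabilises the NADH-binding module, had signals of -1.22, 0.816 and -0.14 in mock and -1.34, -1.02 and -0.26 in NUDT16. Pair 2 alone (-1.83) made most of its difference of -0.69, the other pairs both being at -0.12. NDUFA10 (-0.30, -0.25 and -0.13 by pair) and NDUFA5 (-0.13, -0.44 and -0.20) were the other accessory subunits lower in all pairs among those detected on all 6 arrays, although a second NDUFA10 probe detected on all arrays had a mean difference of 0.051. NDUFA9 entered the test only through its detection in mock, and was not detected on NUDT16 replicate 2. Its differences by pair were -0.60, -2.55 and -0.19, of which -2.55 rests on that undetected value and is uncertain. NDUFV3 was the steadiest, with mock signals of -2.02, -1.86 and -1.88 and NUDT16 signals of -1.95, -1.92 and -1.86. NDUFA4, counted here by its name, is now known as a subunit of complex IV and carries the symbol COXFA4; its differences by pair were 0.103, -0.87 and 0.600.
Of the 4 NDUFAF assembly factors, NDUFAF2 and NDUFAF4 were lower in all pairs, NDUFAF1 was not (0.080 in pair 3), and NDUFAF3 was higher, so that their median was -0.52. By pair, their median was -0.315, -1.021 and 0.015. On NUDT16 replicate 2, NDUFAF1 (-2.99) and NDUFAF4 (-3.10) lay near the lowest detected signal of that array (-3.52), so their pair 2 differences are uncertain. None was called.

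**Figure D4:**
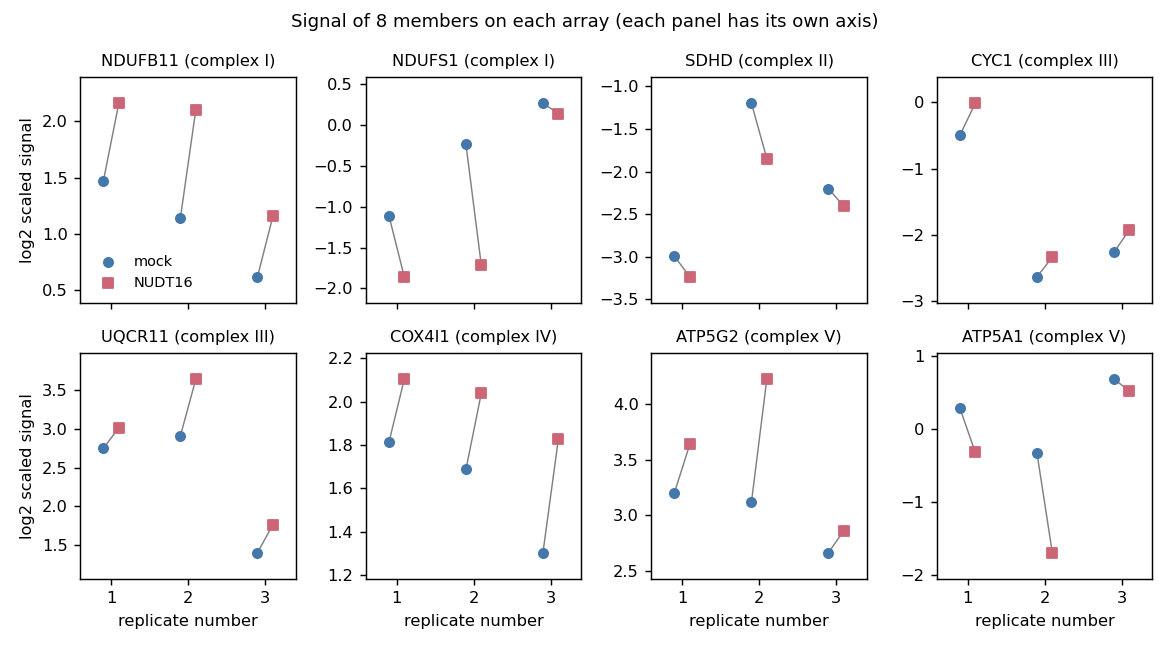
Log2 scaled signal (y axis, own range per panel) against replicate number for 8 members, with circles for mock, squares for NUDT16 and lines joining arrays of one number. All 8 belong to the 33 members higher or the 9 lower in all 3 pairs, out of 85, so the constant sign within a gene follows from their choice. The pair means of each gene differ by more than its group difference. For CYC1, both replicate 1 arrays lie above all others. COX4I1 alone has all 3 squares above all 3 circles.

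Complex II is the shortest list. SDHA, the flavoprotein that oxidises succinate, had signals of 0.647, -0.11 and 0.529 in mock and 0.533, 0.237 and 0.693 in NUDT16, and SDHD, one of its membrane anchors, had -2.99, -1.20 and -2.20 in mock and -3.24, -1.85 and -2.41 in NUDT16. SDHD was lower with NUDT16 in all 3 pairs and differed by -0.37 (SE 0.670). Its limma adjusted p was 0.998, and 0.575 with the replicate block (SE 0.302). SDHA, SDHB (iron-sulphur subunit) and SDHC (the other anchor) were each higher in at least one pair and lower in another. SDHB had differences of -0.32, -0.78 and 0.077, and SDHC of -0.34, 0.252 and 0.299.

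Complex III had 4 of 10 members higher in all pairs and 0 lower. CYC1, the cytochrome c1 subunit that hands electrons to cytochrome c, had signals of -0.50, -2.63 and -2.26 in mock and -0.011, -2.34 and -1.92 in NUDT16. Both arrays of replicate 1 stood far above the others, and against that spread the difference of 0.374 was small (SE 0.786; limma, adjusted p 0.998, and 0.564 with the replicate block). UQCR11, a small accessory subunit, had 2.75, 2.91 and 1.40 in mock and 3.01, 3.64 and 1.76 in NUDT16, and was higher by 0.265, 0.732 and 0.360 within pairs. UQCR10 and UQCRQ, also small accessory subunits, were higher in all pairs as well.
The 2 large core proteins did not share a direction: UQCRC1 had differences of 0.659, 0.430 and -0.34, and UQCRC2 of -0.62, -0.92 and 0.277. The Rieske iron-sulphur protein UQCRFS1 had -0.46, -0.49 and 0.416, and UQCRH, the hinge protein, 0.014, -0.51 and 0.227.

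UQCRB, a ubiquinone-binding subunit, and its processed copy UQCRBP1 could not be read apart. UQCRB had signals of 0.710, 2.45 and 0.869 in mock and 0.789, 1.37 and 0.991 in NUDT16, and the UQCRBP1 probe kept a fixed distance from it, the distance varying by 0.112 over the 6 arrays while each gene varied by 1.74 and 1.70. The 2 probes match in 45 of 49 bases at their best ungapped overlap, read on one strand. ATP5L, a small subunit of complex V, and its copy ATP5L2 also ran together (distance varying by 0.390, the genes by 1.501 and 1.24), and their probes match in 35 of 41 bases. Signals of such copies are uncertain, and both copies stay in the counts of members.

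In complex IV, 6 of 12 members detected throughout were higher with NUDT16 in all 3 pairs and 0 were lower. COX4I1 (probe at chr16:85834852-85838569, hg19) had signals of 1.81, 1.69 and 1.30 in mock and 2.10, 2.04 and 1.83 in NUDT16. It was the only one of 85 members whose groups did not overlap (1.18%, with 0.371% of all genes detected on all 6 arrays not overlapping in that direction), and 0 members were separated in the other direction, with 0.195% as background (0.566% for both directions together). Its mean was 1.60 ± 0.266 in mock and 1.99 ± 0.145 in NUDT16 (SD, n = 3 each), a difference of 0.39 (SE 0.564; limma, adjusted p 0.998, and 0.555 with the replicate block).
COX8A, a small common subunit, had 2.74, 2.21 and 1.44 in mock and 3.15, 3.20 and 1.92 in NUDT16, with differences of 0.413, 0.992 and 0.471. COX6B1, on the outer face of the complex, was higher by 0.422, 0.716 and 0.350, and COX6A1 by 0.345, 0.158 and 0.590. COX7A2 was higher by 0.120, 0.334 and 0.385. The nuclear subunits COX5A (-0.27, -0.93 and 0.506) and COX5B (0.153, 0.046 and 0.167) had opposite signs in pairs 1 and 2. Both were higher with NUDT16 in pair 3. COX7A2L, a factor for supercomplexes of complexes III and IV, had the lowest difference of the complex, -0.27, with -0.22, -0.99 and 0.386 by pair.

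In complex V, 8 of 17 members were higher in all pairs and 2 were lower, and the 2 were the catalytic head proteins. The 8 include the copy ATP5L2 and ATP5SL (current symbol DMAC2), a related factor counted by its name and not a subunit. ATP5A1 (alpha subunit, current symbol ATP5F1A) had signals of 0.280, -0.33 and 0.678 in mock and -0.33, -1.70 and 0.514 in NUDT16. Its difference of -0.71 (SE 0.687) was again mostly from pair 2 (-1.37, against -0.61 and -0.16), with a limma adjusted p of 0.998, and 0.488 with the replicate block. ATP5B (beta subunit, ATP5F1B) was lower by 0.122 to 0.632 within pairs. The gamma subunit ATP5C1 had -0.56, -1.34 and 0.098.
Of the 3 genes that encode the c subunit of the membrane ring, 2 were higher in all pairs. ATP5G2 (ATP5MC2) had 3.20, 3.12 and 2.66 in mock and 3.64, 4.22 and 2.86 in NUDT16, with differences of 0.435, 1.11 and 0.199. ATP5G1 was higher by 0.237, 1.01 and 0.212, whereas ATP5G3 had 0.068, -0.12 and 0.397. Small subunits of the membrane part, ATP5I, ATP5J2 and ATP5L, and the delta subunit ATP5D of the central stalk were higher in all pairs, each by 0.172 to 0.607. The epsilon subunit ATP5E had 0.173, -0.51 and 0.482, and ATP5O, which links head and stator, -0.38, -1.08 and 0.168.

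Members that were higher in all 3 pairs tended to have shorter genes than members that were lower, with overlap between them. The span of a gene, introns included, was taken from RefSeq (GRCh38.p14), after the differences had been seen. The 33 members higher in all pairs had a median span of 5619 bases (799 to 16254), the 9 lower in all pairs 44628 bases (7810 to 207822) and the other 43 members 12635 bases. The median was 9936 bases over the 85 members, and 16154 over the genes detected on all 6 arrays that had a span. Of the 9 lower members, ATP5B (7810 bases), NDUFAF4 (8577 bases) and SDHD (8922 bases) lay within the range of the higher ones. Over the 85 members, Spearman's rho between span and the mean difference was -0.59, and it was -0.60, -0.49 and -0.39 in pairs 1, 2 and 3. Over the 4601 of 5654 genes with a span (81.4%), rho was -0.30, with -0.34, -0.26 and -0.12 by pair.
In the 22 members with the shortest spans (797 to 5489 bases) the median difference was 0.305, with 0.250, 0.211 and 0.359 by pair. In the 21 with the longest (16979 to 207822 bases) it was -0.34, with -0.30, -0.93 and 0.116. The median of the shortest was above that of the longest in each pair. Without the copies UQCRBP1 (797 bases) and ATP5L2 (799 bases), a check added after seeing the data, rho over the other 83 members was -0.61, with -0.61, -0.52 and -0.38 by pair, and 32 members (38.6%) were higher in all pairs and 9 (10.8%) lower.

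**Figure D5:**
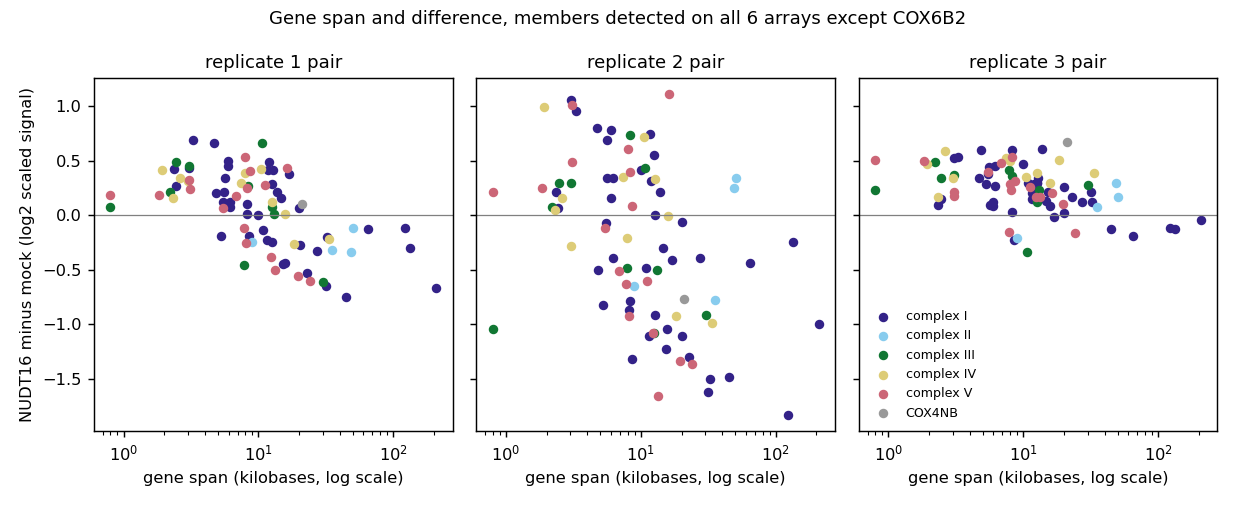
Difference in each pair (y axis, log2 scaled signal) against gene span (x axis, kilobases, log scale) for 84 members detected on all 6 arrays, COX6B2 left out. Each point is a gene, coloured by complex; longer genes tend to lie lower in every panel, with rho -0.60, -0.48 and -0.42 for replicates 1, 2 and 3.

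These points share the same 6 arrays, and other properties moved with span. Members with a short span had probes richer in G and C (rho -0.29 between span and probe GC content). The GC content of the probe had a rho of 0.40, 0.41 and -0.24 with the difference in pairs 1, 2 and 3, beside 0.26, 0.49 and -0.08 over all genes detected throughout. The median probe GC content was 50% for the members higher in all pairs, 43.3% for those lower in all pairs and 40% for the rest. It was 43.3% over the 85 members and 45.0% over all genes detected throughout. Members with a short span also had brighter probes (rho -0.49 between span and mean signal). Mean signal had a rho of 0.36, 0.42 and 0.47 with the difference in pairs 1, 2 and 3, beside 0.03, -0.31 and 0.12 over all genes detected throughout. Probes differ in brightness per molecule, so this is no order of RNA levels. Transcript length was not used here. The parts of probe GC content and of signal in the relation with span were not tested.

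Of the 93 members, 23 had several probes, and 12 had at least 2 probes detected on all arrays. Their differences lay 0.085 apart in the median and 0.425 at most (NDUFA12), and 1 gene, NDUFA10, had probes of opposite sign.

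Other genes of the pathway gave no called gene either. Of 42 assembly and cofactor genes on the array, 20 were detected on all 6 arrays and 37 were tested, and 0 were called; the median difference of the 20 was -0.16, with 5 higher and 5 lower in all pairs. CYCS, cytochrome c itself, was lower in all pairs (-0.24, -2.16 and -0.35), and so was PDSS1, an enzyme of ubiquinone synthesis (-0.76, -1.97 and -0.48). SURF1, an assembly factor of complex IV, was higher (0.233, 0.744 and 0.363).
Of 12 regulator genes, 5 were detected throughout and 10 tested, and 0 were called. The median difference of the 5 was -0.39, with 2 higher and 2 lower in all pairs. TFAM, which packages and transcribes mitochondrial DNA, was lower in all pairs (-0.60, -1.72 and -0.11), as was GABPB1, a subunit of GABP (-0.70, -1.43 and -0.028). POLRMT, the mitochondrial RNA polymerase, was higher (0.465, 1.40 and 0.351), as was ESRRA (0.267, 0.049 and 0.108). YY1 had -0.52, -1.24 and 0.581. NRF1 was detected on 4 arrays and the coactivator PPARGC1A on none.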

How the data were processed

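The scanner values the authors deposited give each spot's intensity on a linear scale (1 colour, Agilent Feature Extraction 10.7.3.1), with background subtracted in each array and no normalization between arrays, per the file headers. A deposited table of log2 values, whose making is not given in the sources used here, served as an alternative. The submitters' processing notes name limma. Members, lists and alternatives were chosen with earlier results of these data known.

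Control spots and outlier spots were left out, spots of a probe averaged, and log2 intensity shifted by the 75th percentile of probes detected on all 6 arrays. The reasons were that 4 arrays had less than 50% of their spots detected, and that the percentile over all probes was a background value on 1 array. That array was NUDT16 replicate 2, with 14.6% of spots well above background. A probe was detected where over 50% of its spots were well above background. Genes detected on all 3 arrays of a group were tested two-sided without a block, by lmFit and eBayes of limma (version 3.58.1; R version 4.3.3), with Benjamini-Hochberg adjustment at 0.05. Genes are named by role within each complex, plus the highest and lowest difference of each complex; others were chosen after their values were seen. The values of 1 member named by role are not reported here. Same-numbered arrays deviated together from the group means (r = 0.837, 0.397 and 0.758 over 13696 genes), and they shared slide and scan, so the numbers pair the arrays. The self-test used simulated data. All 93 members matched a current RefSeq symbol, 21 of them a different one. Probe coordinates are hg19, as in the files; exon positions were not used here. The number of arrays limits the precision.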

Additional observations from a re-analysis of the deposited data

How the results depend on the processing

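No member of the respiratory chain was called under any setting tried: normexp background correction, quantile normalization, the percentile over all probes, the replicate block, replicates 1 and 3 with the block, no filter or one that asks for detection on all 6 arrays, the authors' table, probes averaged per gene, and each array left out. The count over all genes moved from 1 to 0 with normexp, no filter, the filter on 6 arrays and the mean of probes, and to 242 with replicates 1 and 3 and the replicate block. The members' median relative to all genes tested was 0.161, but -0.386 with normexp and -0.58 without a filter, and -0.231 to 0.373 with one array left out; relative to genes detected on all 6 arrays it was -0.080, but 0.23 with replicates 1 and 3 and the replicate block, and -0.301 to 0.095 with one array left out. The cause was not tested.

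None of the 37 named members passed the threshold under another setting. The replicate block and the filters leave a difference as it is by construction, and the block changed no call of a member. Under the other 6 settings, 209 of 222 differences kept their sign. Relative to the median of all genes tested, 61 of 333 differences (all 9 settings) changed sign, and 35 of 222 with one array left out. With replicates 1 and 3 and the replicate block, the sign turned for SDHC (-0.019), UQCRB (0.10), UQCRH (0.12), COX5A (0.119), COX6B2 (-0.219) and COX7A2L (0.085). It turned with normexp for SDHB (0.019) and ATP5E (-0.063), with quantile normalization for ATP5E (-0.037), with the authors' table for ATP5G3 (-0.002), and with the mean of probes for SDHC (-0.313), UQCRB (0.021) and ATP5E (-0.008).

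Leaving out one array turned 29 of 222 differences. The ranges of the genes concerned were -0.134 to 0.498 for NDUFS8, -0.101 to 0.277 for SDHA, -0.083 to 0.373 for SDHC, -0.799 to 0.10 for SDHD, -0.332 to 1.025 for CYC1, -0.609 to 0.261 for UQCRB, -0.242 to 0.535 for UQCRC1, -0.356 to 0.017 for UQCRFS1, -0.272 to 0.189 for UQCRH and -0.203 to 0.608 for UQCRQ. They were -0.023 to 0.974 for UQCR11, -0.461 to 0.136 for COX5A, -0.095 to 0.316 for COX5B, -0.056 to 0.673 for COX6A1, -0.546 to 1.919 for COX6B2, -0.023 to 0.53 for COX7A2, -0.591 to 0.121 for COX7A2L, -0.664 to 0.22 for ATP5B, -0.33 to 0.706 for ATP5E and -0.184 to 0.387 for ATP5G3. Where a group was left with an unmatched number, the comparison was between unequal sets of slides. The weak signal of NUDT16 replicate 2, with 14.6% of spots well above background, limits what its pair can show, and 3 arrays against 3 cannot give an exact permutation p below 0.1.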
